A study of Arabidopsis thaliana with 9 samples.

Results

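UGT76B1, UGT73B5 and UGT74E2 are genes of Arabidopsis thaliana that encode family 1 glucosyltransferases, enzymes that move glucose from UDP-glucose onto small molecules. They were followed through 1 probe set each, 3 of the 22746 on the array that are not controls, by a rule that names the probe sets and uses no measured value. The genes themselves were chosen with earlier results of these data known. UGT76B1 (AT3G11340, chromosome 3) was read by probe set 256252_at and UGT73B5 (AT2G15480, chromosome 2) by 265499_at, as the probe annotation also has it. UGT74E2 (AT1G05680, chromosome 1) was read by 263231_at, which the annotation does not list, so the identity of that probe set was not checked.

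Attaching glucose usually makes a plant hormone or defence compound inactive, more soluble and ready for storage in the vacuole. UGT76B1 glucosylates salicylic acid, the hormone of defence against biotrophic pathogens, and isoleucic acid, a branched-chain hydroxy acid that affects salicylic acid responses. UGT73B5 takes part in redox balance during pathogen attack, and UGT74E2 glucosylates the auxin precursor indole-butyric acid and is known to be induced by hydrogen peroxide. Their transcripts are used as stress markers in leaves.

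Leaf RNA was measured on 9 Affymetrix arrays, 3 for each of cat2 rbohF, cat2 rbohD and cat2, all in the Columbia-0 ecotype. All 3 genotypes lack the catalase CAT2, which removes hydrogen peroxide of photorespiration, and the double mutants also lack RBOHF or RBOHD, the plasma membrane NADPH oxidases that make superoxide outside the cell. Plants were 3 weeks old, grown in air at 200 µmol m-2 s-1 for 16 h a day, and each array held leaves of at least 8 plants combined. The titles give the catalase allele as cat2-2, and the 3 arrays of a genotype held separate biological pools. Wild-type arrays were not analysed here, and induction of these genes by the loss of CAT2 was not measured. In bulk leaves, fewer cells of a type and less RNA per cell cannot be told apart.

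The array of cat2 rbohD replicate 3 stood apart from its group: it correlated with the cat2 rbohF arrays at 0.983 to 0.988 over all tested probe sets, and with the other cat2 rbohD arrays at 0.977 to 0.983. The variance within a genotype, averaged over probe sets, was 0.0212 in cat2 rbohF, 0.0502 in cat2 rbohD and 0.0285 in cat2 (squared log2 units). The leaf marker RCA, for Rubisco activase, had mean log2 values of 14.16 in cat2 rbohF, 14.15 in cat2 rbohD and 14.13 in cat2, and the guard cell marker FMA 5.58, 5.17 and 5.43 in the same order. Only 3 of 20 marker loci for cell types and organs could be tested, as the annotation gave the others no probe set of 1 gene. The third, PYK10, a root marker that encodes a beta-glucosidase, averaged 8.96 in cat2 rbohF, 8.00 in cat2 rbohD and 7.62 in cat2, and rose by 1.35 in cat2 rbohF against cat2 (limma adjusted p = 0.00836). The control signal of GAPDH at its 3′ over its 5′ probe set was 0.91 ± 0.07 in cat2 rbohF, 0.86 ± 0.08 in cat2 rbohD and 0.75 ± 0.06 in cat2 (log2 difference, SD, n = 3 each), with no cat2 array inside the range of a double mutant. The actin and ubiquitin controls, read in the same way, ran in the other direction, with their highest means in cat2. For both, the cat2 arrays overlapped those of each double mutant. The controls thus gave no common direction between the double mutants and cat2. The part of these differences in the results below was not tested.

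Setting cat2 rbohF beside cat2 shows what losing RBOHF changes in leaves that already lack CAT2. UGT76B1 and UGT73B5 fell in cat2 rbohF, 3.14-fold and 2.14-fold, and UGT74E2 did not pass the test. In cat2 rbohD against cat2, the same question for RBOHD, 0 of the 3 genes passed. A difference is called here when its limma p-value, adjusted by Benjamini-Hochberg over the 13888 probe sets tested, is under 0.05. By this rule 16.4% of the tested probe sets were called in cat2 rbohF against cat2, 9.89% as lower and 6.47% as higher, and 0.209% in cat2 rbohD against cat2, 0.187% as lower and 0.0216% as higher. The fall of 2 of 3 genes in cat2 rbohF is thus set against 9.89% of all probe sets, and the 0 of 3 in cat2 rbohD against 0.187%. Since the 3 genes were chosen with earlier results of these data known, these shares are a background and not a test. Both comparisons use the same cat2 arrays. All 27 values of the 3 probe sets lay above 5.14, the log2 value that the filter on dim probe sets uses, so none of their differences was measured in that dim range.

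UGT76B1 had log2 values of 7.30, 8.16 and 7.16 in cat2 rbohF, 8.76, 9.37 and 7.69 in cat2 rbohD, and 9.38, 9.70 and 8.50 in cat2. Every cat2 rbohF array lay under every cat2 array, while the cat2 rbohD arrays overlapped both other genotypes, with replicate 3 inside the range of cat2 rbohF. The means were 7.54 ± 0.54 in cat2 rbohF, 8.61 ± 0.85 in cat2 rbohD and 9.19 ± 0.62 in cat2 (SD, n = 3 each). UGT76B1 fell by 1.65 ± 0.45 on the log2 scale in cat2 rbohF against cat2 (SE, 95% interval -2.65 to -0.65, limma adjusted p = 0.0337). In cat2 rbohD against cat2 its log2 fold change was -0.58 ± 0.45 (95% interval -1.58 to 0.42, limma adjusted p = 0.680). The call in cat2 rbohF against cat2 ended without cat2 replicate 1 (limma adjusted p = 0.0878) or 2 (0.118), or without cat2 rbohF replicate 1 (0.117) or 3 (0.117). Those fits did not use the replicate numbers as a block. With that block and all arrays kept, the limma adjusted p was 0.00202. Leaving out arrays under the block was not tested. In cat2 rbohD against cat2 the log2 fold change of UGT76B1 lay between -0.96, without cat2 rbohD replicate 2, and -0.12, without cat2 rbohD replicate 3. It was -0.93 without cat2 replicate 3 and -0.33 without cat2 replicate 2, and it passed in none of the 9 fits that left out 1 array.

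UGT73B5 had log2 values of 5.83, 6.15 and 5.49 in cat2 rbohF, 6.02, 6.54 and 5.82 in cat2 rbohD, and 6.84, 7.29 and 6.63 in cat2. Both double mutants lay wholly under cat2 at this gene, and they overlapped each other. The means were 5.82 ± 0.33 in cat2 rbohF, 6.13 ± 0.37 in cat2 rbohD and 6.92 ± 0.33 in cat2 (SD, n = 3 each). The fall in cat2 rbohF against cat2 was -1.10 ± 0.23 on the log2 scale (SE, 95% interval -1.62 to -0.58, limma adjusted p = 0.0138). In cat2 rbohD against cat2 the log2 fold change was -0.79 ± 0.23 (95% interval -1.31 to -0.27), which had an unadjusted p of 0.00703 and did not pass after adjustment (limma adjusted p = 0.246). Groups without overlap were found at 38.7% of all probe sets in cat2 rbohF against cat2, 19.8% with cat2 rbohF lower, and at 13.4% in cat2 rbohD against cat2, 7.24% with cat2 rbohD lower. Leaving out cat2 replicate 2 (limma adjusted p = 0.0537) or cat2 rbohF replicate 1 (0.0563) or 3 (0.0540) ended the call in cat2 rbohF. These fits, too, had no replicate block, with which the limma adjusted p over all arrays was 0.000768. Without cat2 rbohD replicate 3 the log2 fold change in cat2 rbohD against cat2 was -0.64 (limma adjusted p = 0.467).

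UGT74E2 had log2 values of 6.93, 7.71 and 6.49 in cat2 rbohF, 9.20, 7.76 and 7.56 in cat2 rbohD, and 8.10, 8.95 and 6.93 in cat2. All 3 genotypes overlapped: cat2 replicate 3 lay inside the range of cat2 rbohF, and the highest value of all was cat2 rbohD replicate 1. The means were 7.04 ± 0.62 in cat2 rbohF, 8.17 ± 0.90 in cat2 rbohD and 7.99 ± 1.01 in cat2 (SD, n = 3 each). Its log2 fold change was -0.95 ± 0.56 in cat2 rbohF against cat2 (SE, 95% interval -2.20 to 0.30, limma adjusted p = 0.289) and 0.18 ± 0.56 in cat2 rbohD against cat2 (95% interval -1.07 to 1.43, limma adjusted p = 0.933). The log2 fold change of UGT76B1 in cat2 rbohF, -1.65, lies inside the first of these intervals, and that in cat2 rbohD, -0.58, inside the second. With 1 array left out, the value of UGT74E2 in cat2 rbohF against cat2 lay between -1.48, without cat2 replicate 3, and -0.47, without cat2 replicate 2, and it did not pass in any of the 9 fits. The sign in cat2 rbohD against cat2 turned without cat2 replicate 3 (-0.35) or without cat2 rbohD replicate 1 (-0.33).

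**Figure D1:**
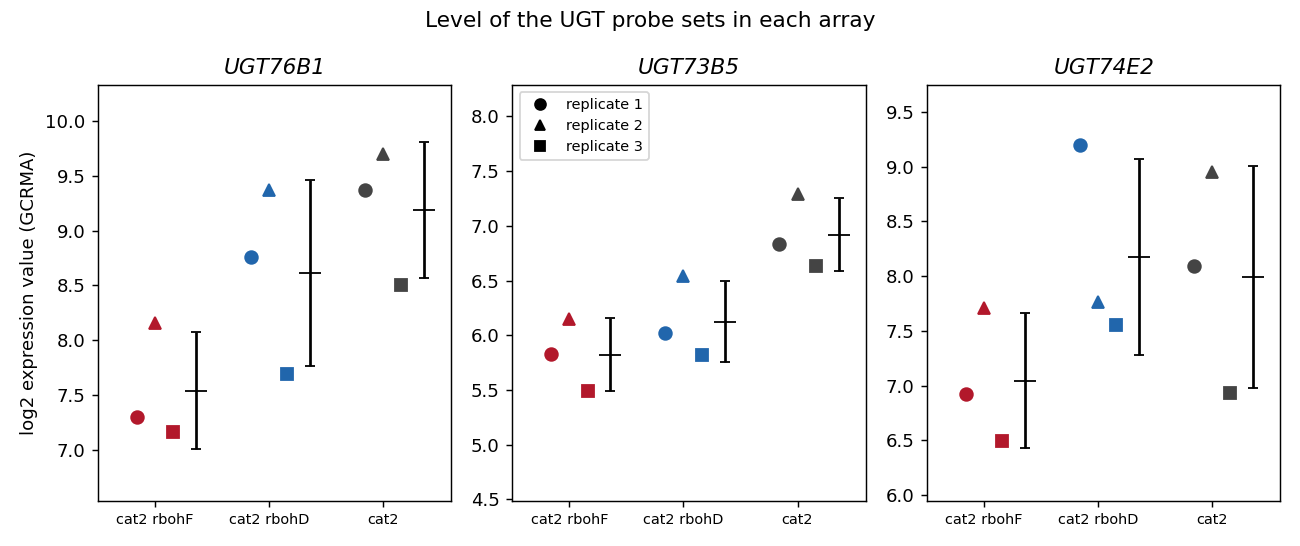
Log2 expression values (vertical axis, GCRMA) of UGT76B1, UGT73B5 and UGT74E2 in the 9 arrays, by genotype, with the replicate number as the symbol and the mean ± SD (n = 3) as a bar at the right of each genotype. Each panel spans the same number of log2 units. The cat2 rbohF values of UGT76B1 and UGT73B5 all lie under those of cat2, and replicate 3 is the lowest of its genotype in every panel.

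The double mutants were also compared directly. Here 0 of the 3 genes passed, where 1.92% of all probe sets did, 1.06% as lower and 0.864% as higher in cat2 rbohF. At each of the 3 genes the double mutants overlapped, while 26% of all probe sets showed no overlap, 13.4% with cat2 rbohF lower. The log2 fold change in cat2 rbohF against cat2 rbohD was -1.07 ± 0.45 for UGT76B1 (SE, 95% interval -2.07 to -0.07, limma adjusted p = 0.199), -0.30 ± 0.23 for UGT73B5 (95% interval -0.82 to 0.22, limma adjusted p = 0.480) and -1.13 ± 0.56 for UGT74E2 (95% interval -2.38 to 0.12, limma adjusted p = 0.268). All 3 values were negative, and the intervals of UGT73B5 and UGT74E2 held 0, while the unadjusted p of UGT76B1 was 0.0382. Without cat2 rbohD replicate 3, the array that stood apart, UGT76B1 passed with a log2 fold change of -1.53 (limma adjusted p = 0.0456), while UGT73B5 was at -0.46 and UGT74E2 at -1.44 and neither passed. That was the 1 fit of the 9 leaving out an array in which any of the 3 genes passed. Without cat2 rbohD replicate 2 the values were -0.69 for UGT76B1 (limma adjusted p = 0.434) and -0.10 for UGT73B5. Without cat2 rbohF replicate 3 UGT73B5 was at -0.14, without cat2 rbohF replicate 2 at -0.47, and without cat2 rbohD replicate 1 UGT74E2 was at -0.62.

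**Figure D2:**
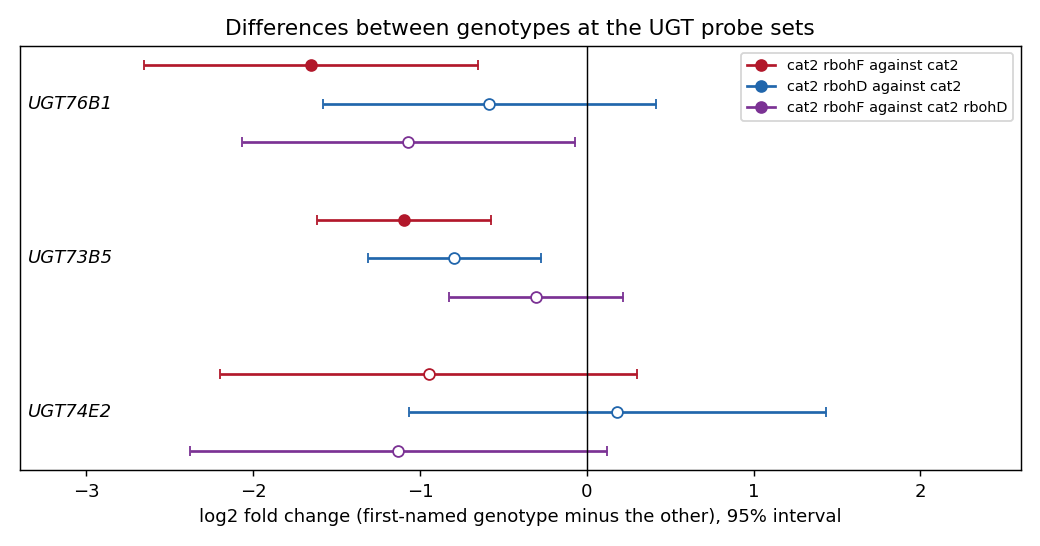
Log2 fold changes (horizontal axis, first-named genotype minus the other) with 95% intervals from limma for the 3 genes in the 3 comparisons. Filled points passed an adjusted p of 0.05. The only filled points are UGT76B1 at -1.65 and UGT73B5 at -1.10 in cat2 rbohF against cat2.

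The 3 transcripts varied more between arrays of the same genotype than most others did. The SD within genotypes was 0.68 for UGT76B1, 0.35 for UGT73B5 and 0.86 for UGT74E2 on the log2 scale, where the median of all tested probe sets was 0.13. Only 57 of the 13888 tested probe sets had a larger SD than UGT76B1 and only 21 a larger one than UGT74E2, against 608 for UGT73B5. Of the 301 probe sets that fell at least as much as UGT74E2 in cat2 rbohF against cat2, itself included, 93.7% were called, which UGT74E2 was not.

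The spread was shared between the genes. Replicate 3 was the lowest array of its genotype for all 3 genes in all 3 genotypes, a pattern that 4.66% of tested probe sets showed. Replicate 2 was the highest in every genotype for UGT76B1 and UGT73B5, and in cat2 rbohF and cat2 for UGT74E2, where replicate 1 was the highest in cat2 rbohD. With both parts of the order, replicate 2 highest and replicate 3 lowest in every genotype, UGT76B1 and UGT73B5 were among 109 of the tested probe sets (0.785%). Over the 9 arrays UGT76B1 correlated with UGT73B5 at r = 0.90, UGT76B1 with UGT74E2 at 0.73 and UGT73B5 with UGT74E2 at 0.53. With each genotype's mean taken out, the same pairs gave 0.90, 0.65 and 0.54. These correlations describe 9 arrays that share their plants, RNA and hybridization between the genes.

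**Figure D3:**
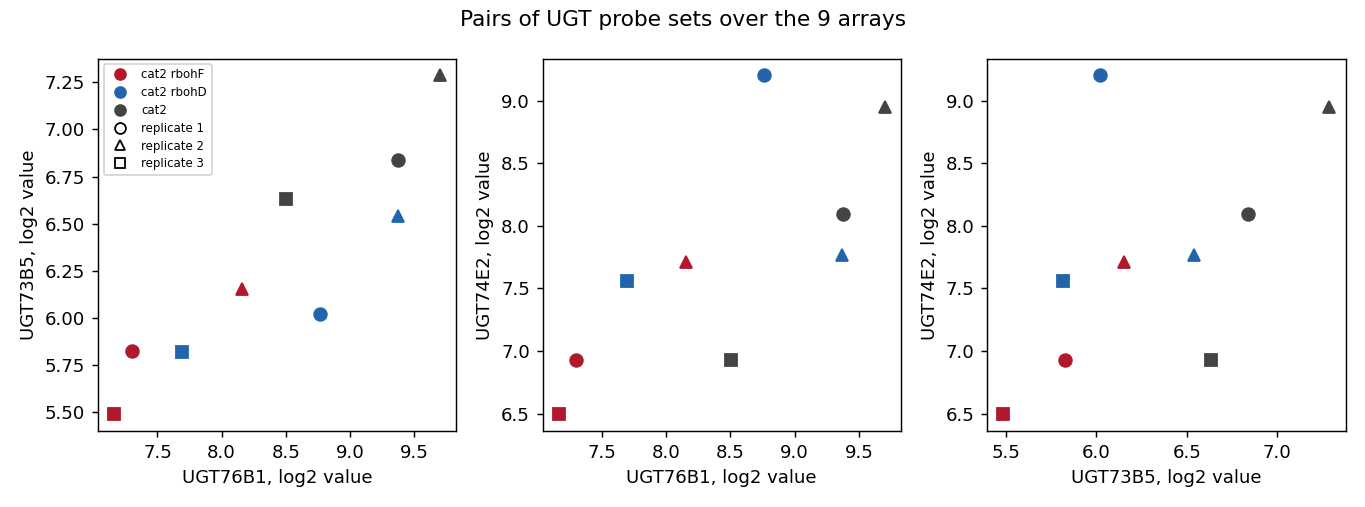
Log2 values of each pair of the 3 genes, 1 point per array, with the genotype as the colour and the replicate number as the symbol. UGT76B1 and UGT73B5 run together (r = 0.90, 9 arrays), and cat2 rbohD replicate 1 is the highest point for UGT74E2 in both panels that hold it.

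The genes were also set against each other within each array, which compares how far they differ between genotypes and not their levels. The log2 value of UGT76B1 minus that of UGT74E2 was 0.37, 0.45 and 0.67 in cat2 rbohF, -0.44, 1.61 and 0.14 in cat2 rbohD, and 1.28, 0.75 and 1.57 in cat2. The cat2 rbohF arrays lay under the cat2 arrays without overlap, by 0.70 on average (exact permutation test, two-sided, p = 0.1, the smallest that 3 against 3 allow, adjusted p = 0.45 over 9 such tests). UGT76B1 minus UGT73B5 was 1.47, 2.01 and 1.68 in cat2 rbohF, 2.74, 2.83 and 1.88 in cat2 rbohD, and 2.54, 2.41 and 1.87 in cat2, with a difference of -0.56 between cat2 rbohF and cat2 (exact permutation p = 0.2, adjusted p = 0.45). UGT73B5 minus UGT74E2 was -1.10, -1.56 and -1.01 in cat2 rbohF, -3.18, -1.22 and -1.74 in cat2 rbohD, and -1.26, -1.66 and -0.30 in cat2, with all 3 genotypes overlapping. These differences were chosen after the values were seen. With 3 arrays a genotype the test could not have reached 0.05, so its p-values decide nothing and the differences are a description.

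The other genes of the UGT family were called in both directions in cat2 rbohF, and the higher calls were the less stable. Of 87 further family loci, 37 were tested and 33 had probe sets too dim to test. For the rest the annotation gave no probe set of 1 gene. It does not list 8730 of the 22746 probe sets, so these loci may still be on the array. In cat2 rbohF against cat2, 4 fell and 3 rose, 18.9% in all against 16.4% of all probe sets, and 30 did not pass. Their median log2 fold change was 0.07, where that of all tested probe sets was 0.01. In cat2 rbohD against cat2, 0 of 37 passed, where 0.209% of all probe sets did, with a median of 0.00 against 0.00 for all. In cat2 rbohF against cat2 rbohD 0 of 37 passed, where 1.92% of all did, with a median of 0.04. A share of 0.209% leaves little room for a call among 37 genes. Between the double mutants UGT73D1 was at -0.99 (limma adjusted p = 0.0576). There 1 gene was called lower under the stricter filter, with replicate numbers as a block or without cat2 rbohF replicate 2. With array weights 2 were called lower, and without cat2 rbohD replicate 3, 2 lower and 1 higher. Over all probe sets these fits called 455 (of 9467 tested), 393, 262, 703 and 1065 in the same order, against 267 in the main fit.

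The UGT genes that fell in cat2 rbohF were UGT73D1 (-0.94), UGT73B4 (-0.92), UGT87A2 (-0.89), whose product is known for a role in flowering time, and UGT72E2 (-0.53), whose product glucosylates monolignols. UGT73B4 lies next to UGT73B5 in the RefSeq table of the TAIR10.1 assembly. Its log2 values were 4.91, 5.14 and 5.02 in cat2 rbohF, 5.22, 5.51 and 5.19 in cat2 rbohD, and 5.62, 6.42 and 5.80 in cat2, so that both double mutants lay under cat2 as at UGT73B5, with all 3 cat2 rbohF values just at or under the filter value. Its log2 fold change was -0.64 in cat2 rbohD (limma adjusted p = 0.239), and over the 9 arrays it correlated with UGT73B5 at 0.93. Whether either probe set also reads the neighbour's transcript was not tested. UGT74E2 likewise lies beside AT1G05675, for which the annotation gave no probe set of 1 gene.

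UGT73D1 had mean values of 5.69 in cat2 rbohF, 6.68 in cat2 rbohD and 6.63 in cat2, and its cat2 rbohD and cat2 arrays overlapped. UGT87A2 had 9.67, 9.91 and 9.79 in cat2 rbohF, 10.51, 10.52 and 10.01 in cat2 rbohD, and 10.64, 10.71 and 10.69 in cat2, without overlap between any genotypes. It alone of the 7 called UGT genes kept its call without any single array (limma adjusted p up to 0.0226). The genes that rose were the anthocyanin glycosyltransferase gene UF3GT (0.84), AT2G31790 (0.48) and UGT88A1 (0.32). UGT88A1 averaged 10.66 in cat2 rbohD and 10.37 in cat2 and did not pass there (limma adjusted p = 0.266), and over the 9 arrays it correlated with UGT73B5 at -0.95. None of the 3 higher calls held without cat2 replicate 1 or 2 or without cat2 rbohF replicate 1 or 3. The lower calls then numbered 4 without cat2 replicate 1, 2 without cat2 replicate 2, 1 without cat2 rbohF replicate 1 and 3 without cat2 rbohF replicate 3. Over all probe sets these fits called 1653, 1080, 817 and 1099 in the same order, against 2273 in the main fit. Under the stricter filter on dim probe sets, 24 genes were tested and 3 were higher and 1 lower. Of all probe sets 2088 of 9467 were called there. UGT72E2, UGT73B4, UGT73D1 and UF3GT were too dim to be tested under that filter.

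**Figure D4:**
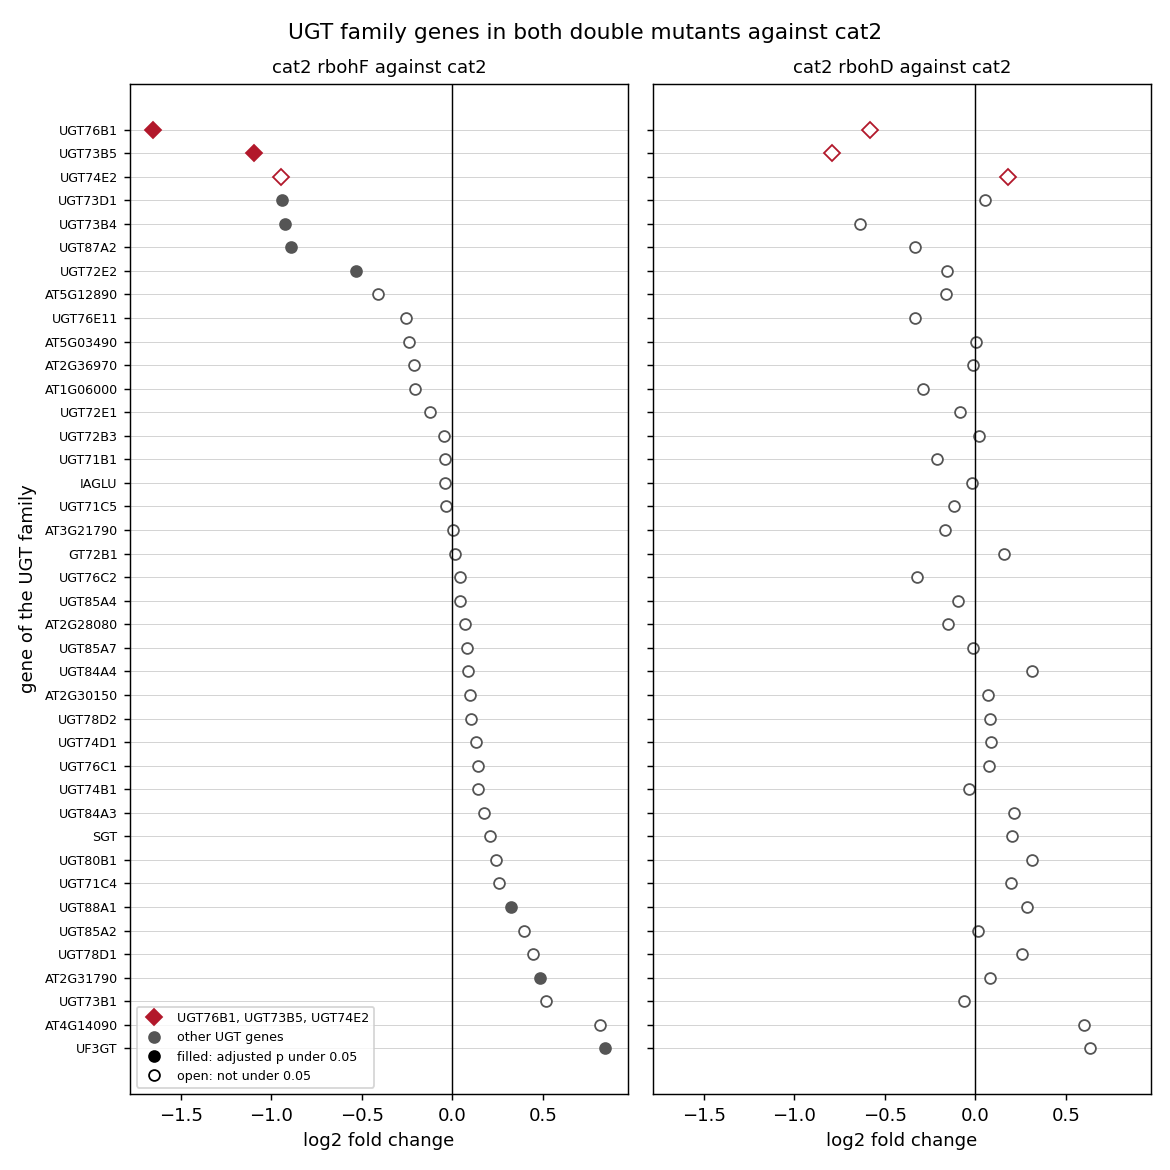
Log2 fold changes (horizontal axes) of the 37 tested UGT genes and of UGT76B1, UGT73B5 and UGT74E2 in cat2 rbohF against cat2 (left) and cat2 rbohD against cat2 (right), ordered by the left panel, where filled symbols passed an adjusted p of 0.05. In the left panel 4 of the other UGT genes are filled on the low side and 3 on the high side, and in the right panel none is filled.

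The genes around the substrates of the 3 enzymes could be followed only in small number. For most of them the annotation gave no probe set of 1 gene. Of 23 salicylic acid genes, 5 were tested, and in cat2 rbohF against cat2 3 fell, AT5G52810 (-0.86), the transcription factor gene WRKY53 and the glutaredoxin gene GRX480, while 2 did not pass, with a median of -0.71. Of all probe sets 9.89% were called lower there. AT5G52810 correlated with UGT76B1 at 0.92 over the 9 arrays and was not called when cat2 replicate 2, cat2 rbohF replicate 1 or cat2 rbohF replicate 3 was left out (highest limma adjusted p 0.0632). WRKY53 averaged 6.74 in cat2 rbohF, 7.89 in cat2 rbohD and 8.72 in cat2, and GRX480 7.75, 8.18 and 8.46 in the same order. Both were lower in every cat2 rbohD array than in every cat2 array, as 7.24% of all probe sets were, but in cat2 rbohD against cat2 0 of 5 passed (limma adjusted p = 0.326 for WRKY53 and 0.361 for GRX480), with a median of -0.28.

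Of 15 auxin genes, of conjugation and of the conversion of indole-butyric acid, 4 were tested. The counts of falls in the auxin, retrograde and detoxification lists are to be read against the 9.89% of all probe sets called lower in cat2 rbohF against cat2. GH3.3, whose product joins auxin to amino acids, fell by 1.16 in cat2 rbohF and the other 3 did not pass, with a median of 0.06. Of those 3, GH3.17, also an auxin-conjugating enzyme gene, was called higher with replicate numbers as a block (0.42, limma adjusted p = 0.0345, against 0.0569 without the block). The list also had 1 gene called higher with quantile normalization again, with each array centred on its median and with array weights. Those fits called 2325, 2280 and 3279 probe sets in either direction. GH3.3 had means of 6.98 in cat2 rbohF, 6.92 in cat2 rbohD and 8.14 in cat2, and its log2 fold change in cat2 rbohD, -1.22, did not pass (limma adjusted p = 0.147). The call of GH3.3 in cat2 rbohF ended without replicate 1 or 3 of cat2 or of cat2 rbohF (highest limma adjusted p 0.0778). Of 12 genes of the mitochondrial retrograde response 3 were tested, and the NADH dehydrogenase gene NDB2 fell by 1.33 in cat2 rbohF while 2 did not pass. With the replicate block AT5G51440 was also called lower (-2.16, limma adjusted p = 0.0396, against 0.0945 without it), which makes 2 of 3. The list also had 2 of 3 genes called lower with array weights and without cat2 replicate 3. There 3279 and 1404 probe sets were called in either direction. NDB2 averaged 8.16 in cat2 rbohF, 9.09 in cat2 rbohD and 9.49 in cat2, and was also called lower in cat2 rbohF against cat2 rbohD, by 0.93 (limma adjusted p = 0.0445), where 1.06% of all probe sets were, a call that held only without cat2 rbohD replicate 3 or cat2 rbohF replicate 2 when single arrays were left out (highest limma adjusted p 0.186). That call was also lost with no filter and in a fit of the 6 arrays compared (highest limma adjusted p 0.0992). Over the 9 arrays it correlated with UGT76B1 at 0.91. Of 25 detoxification genes GSTU25 alone was tested, and it fell, with a mean of 4.31 in cat2 rbohF, under the filter value, and its call held only when the array left out was replicate 1 or 3 of cat2 rbohD or replicate 3 of cat2 (highest limma adjusted p 0.145). It was lost as well with no filter and with each array centred on its median (highest limma adjusted p 0.0630). None of these genes passed in cat2 rbohD against cat2.

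The annotated genes most like each of the 3 over the 9 arrays were taken by Pearson's r, as a description. For UGT76B1 they were AT1G13470 (0.987), AT5G52760 (0.982), AT3G60540 (0.970), GFAT (0.968) and the calmodulin-like gene CML37 (0.968). All 5 were called lower in cat2 rbohF against cat2, by 0.85 to 1.68 on the log2 scale, and 0 of 5 were called in cat2 rbohD, against 9.89% and 0.187% of all probe sets called lower. These genes were chosen for their likeness to a gene that fell on the same arrays, so the counts are no further evidence. For UGT73B5 they were the acetyl-CoA synthetase gene ACS (0.985), AT3G26020 (0.984), AT1G32530 (0.977), AT5G16230 (0.974) and AT3G09490 (0.966). Of these, 4 were called lower in cat2 rbohF against cat2, with AT5G16230 at -1.12, and ACS was at -0.33 (limma adjusted p = 0.0566, and 0.0188 with the replicate block). The same limit holds for this count, set against the same 9.89%.

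For UGT74E2 the most alike were AT2G41730 (0.953), AT5G51440 (0.938), also in the mitochondrial retrograde list, AT5G51830 (0.931), AT3G23605 (0.930) and AT5G46710 (0.912). AT5G51440 had a log2 fold change of -2.16 in cat2 rbohF against cat2 that did not pass in the main fit (limma adjusted p = 0.0945). AT5G51830 was the only one called in the main fit, at -0.83, where 9.89% of all probe sets were called lower. With the replicate block AT5G51440 was called as well (limma adjusted p = 0.0396). These genes, too, were chosen for likeness on the same arrays, so the count is no further evidence.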

How the data were processed

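RNA of 9 leaf pools, 5 µg each, was hybridised to Affymetrix arrays, per the labels. The deposited log2 values, 1 per probe set and array, were made by the authors with GCRMA, per the submitters' processing notes. The GCRMA version is not given in the sources consulted. Where arrays were brought to like distributions, a shift common to most genes is lost. The number of arrays limits the precision.

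With 64 control probe sets removed, those with 3 or more arrays over 5.14 (percentile 40 of the values) were tested, 13888 in all. Limma 3.58.1 in R 4.3.3 fitted 1 mean per genotype and 1 spread over all arrays (lmFit and eBayes, two-sided, 6 residual degrees of freedom). It was tested on simulated data with independent noise and the same spread in every genotype. That test does not cover the unequal spreads or the shared replicate order of these arrays. The platform annotation gave 1 gene for 13513 probe sets, and 13436 of these matched RefSeq (TAIR10.1), used for names and neighbours only. The annotation did not list 8730 probe sets.

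The 3 genes and the gene lists were chosen with earlier results of these data known. Beside the 3 genes, up to 10 called UGT genes were named, up to 5 called genes per other list and comparison (up to 2 of smallest p where none was called), and the 5 genes with the highest r per gene. Alternatives were the filter, the normalization, the variance model, array weights, a replicate block and each array left out. Replicate numbers were taken as a pairing where the deviations of same-numbered arrays from their genotype means correlated over 0.1 in 3 of 3 pairs. This held for cat2 rbohF with cat2 (0.14 to 0.17). Of the other genotypes, 1 of 3 pairs passed for cat2 rbohD with cat2, and 2 of 3 for the double mutants, where the highest was 0.25. The main fit and the fits that left out an array had no block.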

Additional observations from a re-analysis of the deposited data

How the results depend on the processing

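UGT76B1 and UGT73B5 kept the call in cat2 rbohF against cat2 under all alternatives that kept all arrays of both genotypes, apart from the stricter filter (60th percentile), which UGT73B5 did not pass. The replicate block met the pairing rule for that comparison alone. With it no call of the 3 genes or count of other UGT genes changed there, while AT5G51440, GH3.17 and ACS became called. UGT76B1 then had a limma adjusted p of 0.00202, UGT73B5 0.000768 and UGT74E2 0.169, and 2300 probe sets were called against 2273. Elsewhere same-numbered arrays correlated at -0.24 to 0.16 (cat2 rbohD and cat2) and -0.11 to 0.25 (cat2 rbohF and cat2 rbohD). There the block gave 54 calls in cat2 rbohD against cat2 (29 without it), UGT73B5 among them (limma adjusted p = 0.0102), and 393 between the double mutants (267), UGT76B1 among them (0.0371). The count in cat2 rbohD against cat2 was 12 under the stricter filter, 15 in a fit of the 6 arrays alone and 18 when arrays were weighted. Between the double mutants it was 164 without a filter, 455 under the stricter filter, 703 when arrays were weighted and 2 in a fit of the 6 arrays alone. Of the other UGT genes, array weights called 7 higher and 5 lower in cat2 rbohF against cat2, and the 6 arrays alone 6 higher and 5 lower, counts added after seeing the data. Over all 13888 probe sets those fits called 3279 and 2813, against 2273 in the main fit. Leaving out each array gave 817 to 2704 for cat2 rbohF against cat2, 7 to 35 for cat2 rbohD against cat2 and 1 to 1065 between the double mutants. The log2 fold change of UGT74E2 in cat2 rbohD against cat2 then lay between -0.35 and 0.66. The cause of these shifts was not tested.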
